A study of Mus musculus with 18 samples.

Results

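The genes described here encode the proteins of the cytosolic ribosome. They were chosen by symbol, as protein-coding genes of the GENCODE M21 annotation named Rpl or Rps with a number, with or without a closing letter a, x, y or l, together with Rplp0, Rplp1, Rplp2 and Rpsa. The rule took 80 of 21951 protein-coding genes, on 19 chromosomes, of which 46 encode proteins of the large subunit, 31 proteins of the small subunit and 3 proteins of the stalk. It missed 7 further genes whose names follow another form, among them Fau and Rps3a1, which are given apart. Chromatin accessibility was measured by ATAC-Seq, in which a transposase inserts adapters into open DNA, in 18 libraries of bulk retina from WT mice. The 6 groups of 3 libraries were 3mo and 18mo retinas (3 and 18 months of age) that had received an intraocular pressure (IOP) elevation of 30 mmHg for 1 h and were collected at day 2, contralateral retinas of the other eye at the same day, and retinas labelled only by age, called untreated here. The day of collection is that of the sample labels, whereas the study's own account gives a different day for the ATAC-Seq retinas, and which holds could not be settled here. All groups shared the WT genotype. The treatment text attached to every library describes dasatinib and vehicle injections, without saying which injection any library's animal received. The contralateral eyes belonged to animals with 1 pressurised eye, which limits them as controls, and nothing in the labels says whether the 3 libraries of a group came from separate animals, so that p-values measure the spread between these libraries.

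Ribosomal protein genes are transcribed strongly in nearly every cell, because the proteins are needed in equal amounts to build each subunit. Their promoters usually lack a TATA box, and their transcripts begin with a run of pyrimidines, the terminal oligopyrimidine tract, through which mTOR signalling controls their translation. In the retina the photoreceptors, which renew their outer segments throughout life, place a steady demand on protein synthesis.

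RefSeq promoter sequences (GRCm38.p6, 250 bases before to 50 after each start, 300 bases in all) were held for 60 of the 80 genes. Among the 20 without an entry were Rpl32, Rps14, Rps20, Rpl23a, Rpl7, Rpl3, Rpl29, Rpl36, Rpl8, Rpl30, Rps29, Rpl21, Rplp1, Rpl17 and Rps27a. The following promoters show the range of start sequences among genes with a peak in every library, and then 2 genes of the same family with none. Capitals mark the longest pyrimidine run near the start, where it held at least 8 bases, and exact matches on either strand, overlaps included, to the motifs of ETS/GABP, Sp1, YY1, the TATA box, NRF1 and the CAAT box. The RefSeq start is the first of the last 50 bases of each line.

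Rpl7a (chr2:26910557-26910856, plus strand) had the longest pyrimidine run near the start among the 60 genes with a sequence, 21 bases. Rpl15 (chr14:18270937-18271236, minus strand) had a run of 17 bases with 2 ETS/GABP matches. Rps6 (chr4:86857318-86857617, minus strand), whose protein is the classical substrate of the S6 kinases, had a run of 10 bases from base 1 before the start. Rpl11 (chr4:136053344-136053643, minus strand), which with Rpl5 restrains Mdm2 when ribosome assembly fails, had a run of 17 bases that followed directly on an ETS/GABP match. Rplp0 (chr5:115559217-115559516, plus strand), the base of the stalk, had no run of 8 bases but 2 CAAT box matches. It also held the letters of the TATA box, which stood after the RefSeq start.
Rpl7a: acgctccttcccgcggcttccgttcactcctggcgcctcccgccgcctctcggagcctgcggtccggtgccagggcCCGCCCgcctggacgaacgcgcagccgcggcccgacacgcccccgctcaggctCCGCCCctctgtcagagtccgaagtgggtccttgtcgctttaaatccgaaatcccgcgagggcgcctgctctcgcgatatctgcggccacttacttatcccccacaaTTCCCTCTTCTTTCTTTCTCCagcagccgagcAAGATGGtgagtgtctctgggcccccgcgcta
Rpl15: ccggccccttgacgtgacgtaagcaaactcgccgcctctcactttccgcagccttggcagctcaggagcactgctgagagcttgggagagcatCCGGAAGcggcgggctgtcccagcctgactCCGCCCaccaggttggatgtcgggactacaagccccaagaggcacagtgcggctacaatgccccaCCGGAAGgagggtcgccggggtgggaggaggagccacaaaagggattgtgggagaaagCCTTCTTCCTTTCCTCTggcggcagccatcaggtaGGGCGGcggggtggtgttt
Rps6: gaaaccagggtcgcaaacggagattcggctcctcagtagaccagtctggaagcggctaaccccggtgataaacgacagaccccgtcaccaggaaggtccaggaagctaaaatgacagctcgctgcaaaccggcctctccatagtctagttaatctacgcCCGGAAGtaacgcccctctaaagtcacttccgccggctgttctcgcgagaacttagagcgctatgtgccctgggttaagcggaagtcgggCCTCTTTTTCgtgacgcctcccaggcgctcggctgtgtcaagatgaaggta
Rpl11: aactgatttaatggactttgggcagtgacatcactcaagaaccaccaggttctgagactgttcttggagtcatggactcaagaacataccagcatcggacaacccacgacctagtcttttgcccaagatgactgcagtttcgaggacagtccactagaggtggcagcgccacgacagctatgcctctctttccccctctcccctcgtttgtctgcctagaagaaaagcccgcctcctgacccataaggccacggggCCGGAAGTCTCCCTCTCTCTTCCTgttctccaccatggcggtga
Rplp0: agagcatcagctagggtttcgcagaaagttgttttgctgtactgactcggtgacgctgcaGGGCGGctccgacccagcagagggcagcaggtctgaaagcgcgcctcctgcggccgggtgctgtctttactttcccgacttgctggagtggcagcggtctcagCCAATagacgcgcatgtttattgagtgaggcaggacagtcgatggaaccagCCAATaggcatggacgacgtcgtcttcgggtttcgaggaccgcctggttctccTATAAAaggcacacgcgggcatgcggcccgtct
The next lines are Rpl39l (chr16:10169978-10170277, plus strand), a paralog known from the testis, and Rpl3l (chr17:24727576-24727875, plus strand), a paralog known from striated muscle, neither of which was called in any library.
Rpl39l: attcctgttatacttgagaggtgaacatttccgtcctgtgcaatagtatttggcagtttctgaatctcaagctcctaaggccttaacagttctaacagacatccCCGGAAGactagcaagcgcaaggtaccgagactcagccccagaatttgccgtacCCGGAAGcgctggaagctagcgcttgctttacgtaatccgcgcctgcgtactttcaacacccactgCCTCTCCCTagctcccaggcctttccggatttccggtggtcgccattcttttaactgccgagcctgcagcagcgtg
Rpl3l: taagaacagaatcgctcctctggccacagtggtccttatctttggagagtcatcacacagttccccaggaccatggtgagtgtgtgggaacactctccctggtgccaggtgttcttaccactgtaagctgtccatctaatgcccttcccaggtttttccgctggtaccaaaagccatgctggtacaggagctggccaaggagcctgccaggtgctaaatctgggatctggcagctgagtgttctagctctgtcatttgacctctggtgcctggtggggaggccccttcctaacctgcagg
The Rpl39l promoter held 2 ETS/GABP matches and a run of 9 bases, and the Rpl3l promoter held no match and a longest run of 5 bases.

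Of the 57 called ribosomal protein genes with a sequence, 30 (52.6%) carried a pyrimidine run of at least 8 bases overlapping the 20 bases on either side of the start, against 18.9% of 9450 protein-coding genes called in every library and 20.4% of all 16521 in the table. A run of at least 10 bases was held by 40.4% of the ribosomal protein genes, by 9.52% of the genes called in every library and by 10.2% of all. The ETS/GABP match, spelled CCGGAAG, stood in 38.6% of the ribosomal protein promoters, against 19.6% and 12.4%, and 14 genes held both this match and a run of at least 8 bases. The YY1 match, with the letters AAGATGG, was at 14.0%, against 7.33% and 6.40%. The Sp1 match GGGCGG, at 59.6%, lay between the 67.5% of genes called in every library and the 48.5% of all genes, and the TATA box, searched as TATAAA, at 8.77%, lay between their 6.28% and 12.9%. The CAAT box, searched as CCAAT, was found in 33.3%, 39.5% and 38.7%, and the NRF1 site in 8.77%, 11.3% and 6.83% of the 3 sets. The median GC content was 57.7% in the ribosomal protein promoters and 61.7% in the promoters called in every library, with medians of 21 and 22 CpG. These matches are counts of letters and do not show that a factor was bound.

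**Figure D1:**
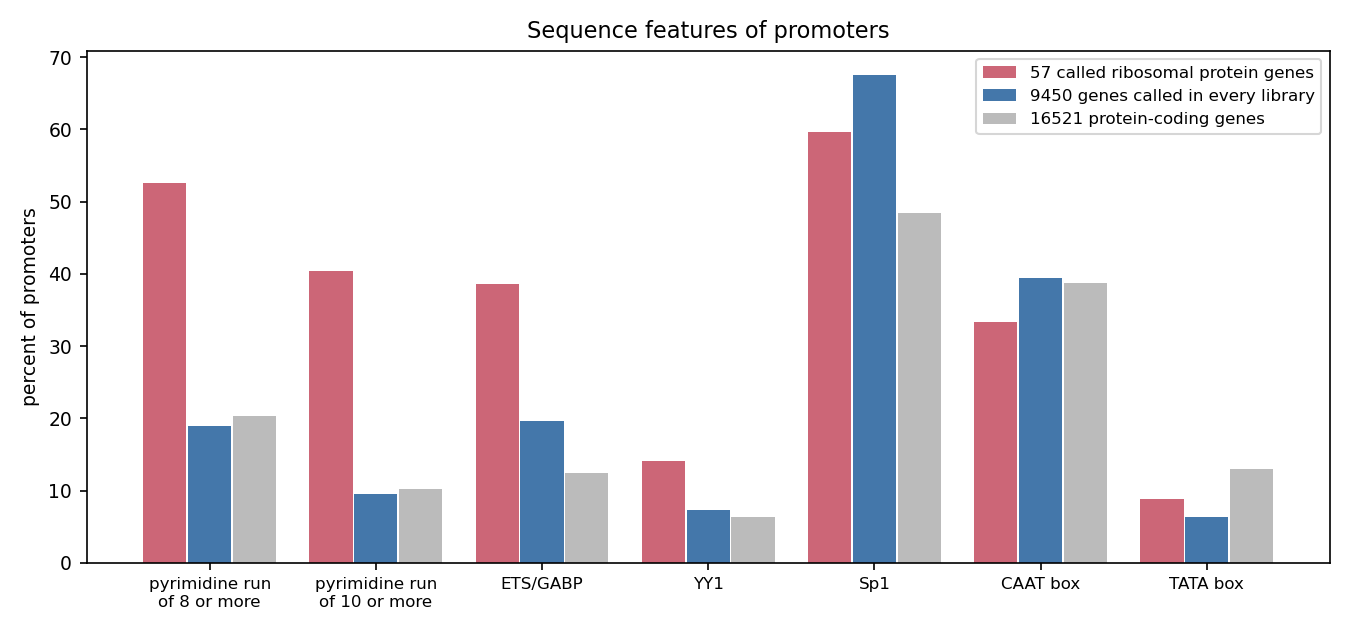
Share of RefSeq promoters (vertical axis, percent) that hold each sequence feature, for 57 called ribosomal protein genes, 9450 genes called in every library and 16521 protein-coding genes. Pyrimidine runs and the ETS/GABP site stand higher in the ribosomal protein genes than in either comparison set, as does YY1, while Sp1, the CAAT box and the TATA box do not stand above both sets.

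A gene was counted as called in a library when a listed peak overlapped the 1000 bp on either side of any of its annotated transcript starts. By this count 77 of the 80 ribosomal protein genes were called in all 18 libraries and 3 were called in none, with no gene in between. Among all protein-coding genes 54.9% were called in every library (12054 of 21951), and each library called between 12798 and 14302 genes. The 3 genes without a call were Rpl3l, Rpl10l and Rpl39l, paralogs whose expression is known mainly from striated muscle or the testis. Rps27l, a widely expressed paralog of Rps27, was called in 18 of 18 libraries. A peak list holds only regions past the caller's threshold, so the missing calls do not measure zero accessibility. Of the ribosomal protein genes that the symbol rule missed, 6 of 7 were called in all libraries, the exception being Rps27rt.

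Other genes of the translation machinery were called as fully. All 17 further genes with oligopyrimidine transcripts (elongation and initiation factors, Npm1, Tpt1 and the like), all 14 ribosome biogenesis genes and all 78 mitochondrial ribosomal protein genes were called in 18 of 18 libraries. Of 14 retinal marker genes 10 were called in every library, including Crx and Nrl of the photoreceptors, while Grm6 and Rlbp1 were called in 9 libraries, Rbpms in 15 and Tfap2a in 16. Of 9 markers of other tissues 7 were called in none, and Pmel and Ckm were called in all 18. Neither Pmel nor Ckm had a peak within 1000 bp of its reference start in every library. Their calls thus rested, in at least 1 library, on a peak near another annotated start. The libraries held between 36011 and 66160 peaks. Their shortest listed peak was 79 to 89 bp in the 6 untreated libraries and 114 to 157 bp in the other 12.

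Since the same 77 genes were called in every group, calling did not separate the groups. Over the 12 control libraries, 570 promoters had a number of calls at which Fisher's exact test could pass p under 0.05, and none of the ribosomal protein genes was among them. The two-sided test called 0% of the 570 by age after Benjamini-Hochberg adjustment, and 10 had an unadjusted p under 0.05. For IOP, a promoter called in all 3 libraries of 1 group and in none of the other was counted without a test. Such promoters made up 0.0592% of all genes at 3mo (4 gained, 9 lost) and 0.246% at 18mo (6 gained, 48 lost), and no ribosomal protein gene was among them.

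The width, height and summit of a promoter peak were taken from the peak nearest to the reference start of each gene, within 1000 bp. Height is the fold enrichment that the peak caller gave, also expressed as a percentile among all peaks of the same library, and the summit is given as bases from the start, negative upstream. Of the 77 called genes 75 had such a peak in all 18 libraries, as had 11290 protein-coding genes. Ribosomal protein genes have many processed pseudogenes that copy their exons, and how reads with several matches were treated in these libraries is not given in the sources used here. The 2 other called genes were Rps10 and Rpl17, whose highest peaks lay at another annotated start. The Rps10 summit lay 88.5 bp upstream of that start and 1336.5 bp downstream of the reference start. Its peak had a mean percentile of 92.5 ± 2.1, and Rps10 had a peak within 1000 bp of the reference start in 9 libraries.

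Ribosomal protein promoters were among the higher peaks of each library. Their median percentile lay between 88.7 and 91.7 over the 18 libraries, and that of all protein-coding promoters between 81.0 and 84.2, so the ranges did not overlap. In fold enrichment the members' median ran from 10.8 to 15.1, and that of all promoters from 9.15 to 13.0. Large and small subunit genes stood close together, with medians of the mean percentile of 90.03 over 42 genes and 91.0 over 30 genes, and the 3 stalk genes had 89.2. The mitochondrial ribosomal protein genes had a median of 90.6, the other oligopyrimidine genes 90.2, the ribosome biogenesis genes 90.2 and the 10 retinal markers with a peak in every library 34.0. The highest promoters were Rpl27, at a mean percentile of 98.6 ± 1.1 (SD, n = 18), Rps20 at 98.4 ± 1.0, Rps28 at 98.2 ± 1.0 and Rpl34 at 98.2 ± 0.68. They differed from each other by less than the spread between libraries. Mean percentiles above 90 were reached by 37 of the 75 genes, and 7 stayed below 70. The median of the 75 genes was 89.98, with quartiles at 82.3 and 94.3. Over all protein-coding promoters with a peak in every library the median was 84.6, with quartiles at 71.5 and 92.5, so single genes overlapped widely.

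The lowest values at the reference start were those of Rps14, at 39.97 ± 18.8, Rpl7 at 55.6 ± 6.1, Rpl19 at 63.0 ± 7.6 and Rpl10a at 65.5 ± 3.8. The value of Rps14 belonged to the start chosen by the annotation. Its highest peak lay 27435 bp downstream of that start and 12 bp upstream of another annotated start, and there it had a mean percentile of 91.6 ± 2.2. Rpl7 in contrast had its highest peak at the reference start itself, with percentiles from 43.4 to 65.1 in the 18 libraries. When the highest peak at any annotated start was taken, an alternative chosen after seeing the data, the median of the 77 genes was a percentile of 90.6, and the lowest single value was the 43.4 of Rpl7.

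Promoter peaks of the family were about as wide as those of other genes. The median over 75 genes of the mean width was 788 bp, against 804 bp over 11290 protein-coding promoters with a peak in every library. This difference was -15.4 bp, and the middle of the distribution was tighter, with quartiles at 682 and 883 bp against 631 and 997 bp. Within single libraries, all promoters with a peak in that library were counted. There the ratio of the ribosomal protein median to the median of all promoters was 0.996 to 1.09, with a median of 1.03. The direction thus depended on the way of counting, and the single-library difference of medians had an SD of 17.3 bp between libraries. The mitochondrial ribosomal protein genes had a median of 695 bp over 78 genes and the other oligopyrimidine genes 898 bp over 17. Rpl7 had the widest peak, at 1586 ± 326 bp (SD, n = 18), followed by Rpl10a at 1209 ± 209 bp, Rps19 at 1055 ± 102 bp and Rpl7a at 1049 ± 166 bp. Rps19 is the gene most often mutated in Diamond-Blackfan anaemia. The narrowest peaks were those of Rpl36, at 426 ± 94.5 bp, Rpl28 at 479 ± 38.9 bp, Rpl41, which encodes the smallest ribosomal protein, at 523 ± 42.7 bp, and Rpl35 at 529 ± 87.9 bp. Peaks wider than 1000 bp were found for 8 genes and peaks under 600 bp for 10. Width and height were nearly unrelated across the 75 genes, with a Spearman rho of -0.09 between mean width and mean percentile, given as a description because the genes share libraries.

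**Figure D2:**
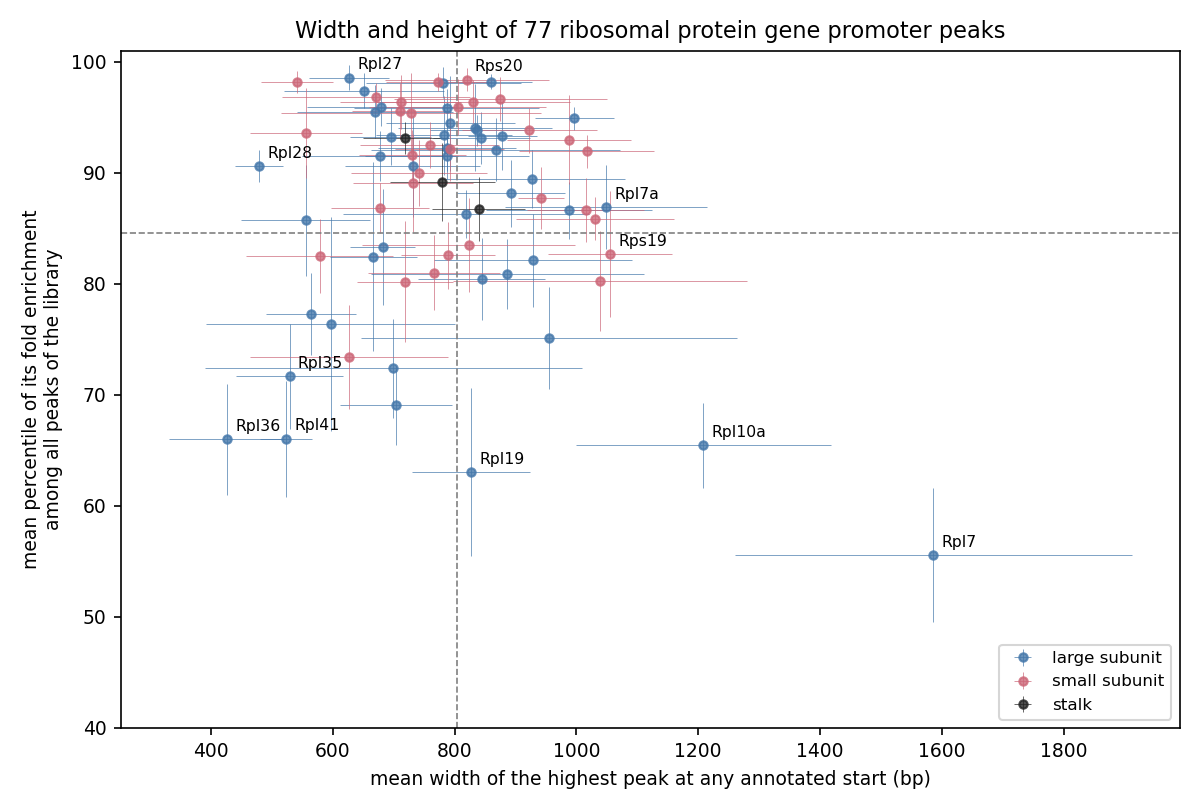
Mean width (horizontal axis, bp) against mean percentile of fold enrichment (vertical axis) of the highest promoter peak of 77 ribosomal protein genes, with bars of 1 SD over 18 libraries and dashed lines at the medians of all protein-coding promoters. Most genes lie above the horizontal line, Rpl7 and Rpl10a lie far to the right with low percentiles, and Rpl36 and Rpl41 lie to the left with low percentiles.

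Other genes of well-known function lay nearer the middle. Rplp0 had a mean width of 719 ± 69.9 bp and a percentile of 93.2 ± 1.4, and Rpsa, the laminin receptor and small subunit protein, 711 ± 99.5 bp and 96.4 ± 2.4. Rpl5 and Rpl11, partners in the assembly checkpoint, had widths of 788 ± 113 bp and 669 ± 127 bp and percentiles of 92.3 ± 2.2 and 95.5 ± 2.4. Rps6 was wider, at 1017 ± 111 bp, with a percentile of 91.9 ± 1.5. Of the 4 X-linked genes, Rps4x had 556 ± 92.5 bp and 93.6 ± 4.1, and Rpl10, which joins the large subunit late in its maturation, had 927 ± 153 bp and 89.5 ± 2.6.

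The summits lay close to the starts. In each library the median distance of the ribosomal protein summits from the reference start was -13 to -27 bp, and the median without sign was 45 to 57 bp, against 66 to 86 bp over all promoters. For mean summits over the libraries the median without sign was 51.6 bp. It was 41.7 bp for mitochondrial ribosomal protein genes, 24.9 bp for ribosomal protein genes outside the symbol rule and 21.8 bp for retinal markers. Other oligopyrimidine genes had 63.1 bp and ribosome biogenesis genes 75.4 bp. For 47 genes the median summit was upstream of the reference start, for 27 in an exon and for 1 in an intron. By mean summit 64.0% of the ribosomal protein genes lay upstream, near the 64.5% of all protein-coding promoters. At the highest peak at any annotated start, 52 of 77 summits lay within 50 bp of an annotated start and 66 within 100 bp. No such count over all promoters is given here, and a gene with many annotated starts is favoured by it. Within 150 bp of the reference start lay 90.7% of the mean summits of ribosomal protein genes, against 74.9% over all promoters. The position was also steady between libraries, with a median SD of 25.5 bp over the 77 genes. At the reference start the median SD was 25.5 bp, against 33.8 bp over all promoters and 31.1 bp over mitochondrial ribosomal protein genes. It was 17.1 bp for ribosomal protein genes outside the symbol rule. Rps26, a small subunit protein at the mRNA exit channel, had the steadiest summit, between -89 and -82 bp from its start in all 18 libraries (SD 1.8 bp). The 3 summits furthest upstream of the reference start were those of Rpl10a at -204 ± 193 bp, Rpl7 at -164 ± 76.1 bp and Rpl32 at -138 ± 137 bp. The 3 furthest downstream among the 75 genes were Rps14 at 1067 ± 523 bp, Rps25 at 458 ± 71.0 bp and Rpl35 at 447 ± 16.3 bp. Their highest peaks had summits 12, 38.5 and 57.5 bp upstream of another annotated start.

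**Figure D3:**
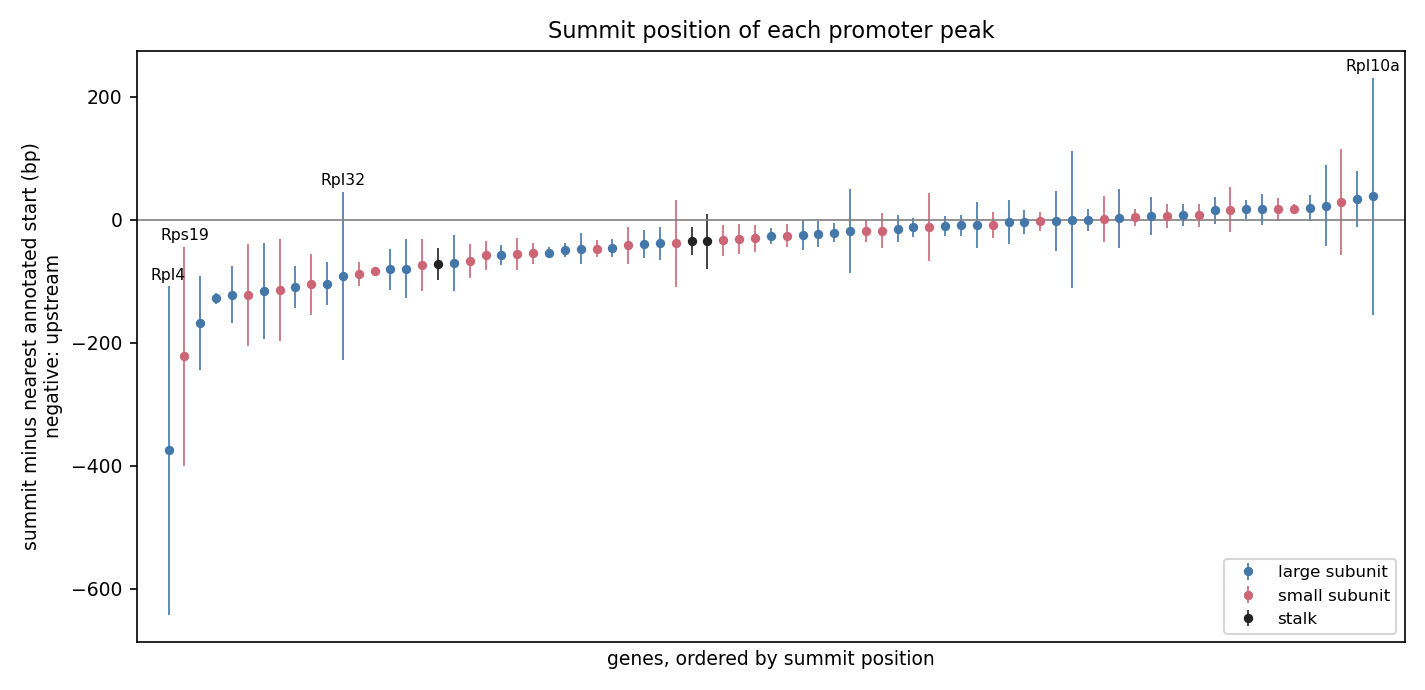
Median summit of the highest promoter peak of each of 77 ribosomal protein genes, in bp from the nearest annotated start (vertical axis, negative upstream), with bars of 1 SD over 18 libraries and genes ordered by position along the horizontal axis. The summits of 66 genes lie within 100 bp of a start, and Rpl4, Rps19, Rpl32 and Rpl10a have the longest bars.

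A few genes had more than 1 preferred summit. At Rpl4, whose protein lines the exit tunnel, the summit was at -379, 125 and -377 bp in the 3mo contralateral libraries, at 110, -378 and 133 bp in the 3mo IOP libraries and at 6, 20 and 12 bp in the 3mo untreated libraries. At 18mo it was at 126, -374 and 116 bp in the contralateral, at -378 bp in 1 and downstream of the start in 2 of the IOP and at 12, 24 and 25 bp in the untreated libraries. The 5 libraries with the upstream summit were all among the 7 whose shortest peak was 148 to 157 bp, and whether this length has a part in the position was not tested.

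Age was compared over the 12 control libraries, 6 of 3mo and 6 of 18mo, in a limma fit over 11429 protein-coding promoters with the kind of control as a covariate. No ribosomal protein gene passed an adjusted p of 0.05 for width, summit or height, and neither did any other gene (0% called in each). At an unadjusted p under 0.05 stood 2 of 75 ribosomal protein genes for width, 4 for summit and 4 for height, beside 8.80%, 3.65% and 8.27% of all promoters. In bulk tissue a change in the accessibility of a promoter and in the share of the cells that open it cannot be told apart. Rpl8 and Rpl39 were among the genes with the smallest p for width. The width of the Rpl8 peak ranged from 216 to 630 bp with a median of 482 bp in the 3mo controls and from 366 to 770 bp with a median of 612 bp in the 18mo controls, so the ages overlapped. Its difference was 0.37 ± 0.15 on the log2 scale (SE, limma, adjusted p = 0.53), and that of Rpl39 was 0.21 ± 0.10 (adjusted p = 0.58 in limma).

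The smallest p for the summit were those of Rpl15, Rpl34 and Rps6. The Rpl15 summit lay between -21 and 8 bp, with a median of -8 bp, in the 3mo controls and between -5 and 28 bp, with a median of 16 bp, in the 18mo controls. The shift was 23.3 ± 6.2 bp downstream at 18mo, which did not pass (SE, limma, adjusted p = 0.94). The shifts of Rpl34 and Rps6 were 27 ± 9.2 and 25.7 ± 9.6 bp, with the same adjusted p. For height the smallest p were those of the stalk protein Rplp1, at -0.15 ± 0.05 on the log2 scale (adjusted p = 0.44 in limma), Rpl23 at 0.13 ± 0.05 (adjusted p = 0.51 in limma) and Rpl10 at -0.12 ± 0.05 (adjusted p = 0.58 in limma). The fold enrichment of Rplp1 was 11.96 to 14.9 at 3mo and 10.9 to 13.6 at 18mo, and these ranges overlapped.

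IOP was compared with the contralateral eyes in a fit over 11609 promoters and 12 libraries. Of the 75 ribosomal protein genes none passed at 3mo, at 18mo or in the difference between the ages, for width, summit or height. Over all promoters the share called for width was 0.00861% at 3mo, 0% at 18mo and 0.00861% in the difference between the ages. For the summit it was 0.00861% at 3mo, 0.00861% at 18mo and 0% in their difference, and for height 0% in all 3. Unadjusted p under 0.05 were found for 2, 3 and 1 ribosomal protein genes for width, 2, 4 and 2 for the summit and 2, 1 and 0 for height, in that order of comparisons, beside 2.56% to 7.32% of all promoters.

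The smallest p for width at 3mo was that of Rpl36, the narrowest peak of the family. It measured 394, 403 and 389 bp in the contralateral and 466, 622 and 513 bp in the IOP libraries at 3mo, which did not overlap. At 18mo it measured 442, 552 and 505 bp in the contralateral and 376, 524 and 471 bp in the IOP libraries, which did. The log2 difference was 0.40 ± 0.10 at 3mo (SE, limma, adjusted p = 1.00), and the difference between the ages was -0.50 ± 0.15 (adjusted p = 1.00 in limma). Rpl8 and Rpl13 followed at 3mo with 0.36 ± 0.13 and 0.26 ± 0.12. At 18mo Rpl9 had -0.22 ± 0.09, Rps15 0.26 ± 0.11 and Rps18 -0.12 ± 0.06. In the difference between the ages Rpl7a had 0.21 ± 0.10, and none of these passed.

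For the summit under IOP, Rps27a, which encodes ubiquitin fused to a small subunit protein, had a small p at both ages. Its summit lay at -93, -112 and -80 bp in the 3mo contralateral and at -137, -144 and -128 bp in the 3mo IOP libraries, and at 18mo at -109, -94 and -106 bp in the contralateral and at -127, -133 and -133 bp in the IOP libraries. At each age the IOP summits lay further upstream without overlap, by -42.0 ± 10.0 bp at 3mo and -30.0 ± 10.0 bp at 18mo, and neither shift passed (SE, limma, adjusted p = 1 for both). In the untreated libraries the summit lay at -121, -122 and -91 bp at 3mo and at -107, 226 and -117 bp at 18mo, within or beyond the span of both other groups. Rps27l shifted by 32.7 ± 18.5 bp at 3mo, and Rps3 and Rpl7 by 50.3 ± 14.7 and 78.3 ± 27.1 bp at 18mo, none of which passed. In the difference between the ages Rps27l had -62.7 ± 26.1 bp, Rps3 48.7 ± 20.8 bp and Rpl7 75.7 ± 38.3 bp.

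For height under IOP, Rps24 had the smallest p at 3mo. Its fold enrichment was 9.61, 10.5 and 8.58 in the contralateral and 8.61, 7.17 and 8.20 in the IOP libraries at 3mo, and 11.5, 10.2 and 11.7 against 10.9, 8.98 and 7.71 at 18mo, overlapping at both ages. The differences were -0.22 ± 0.08 and -0.18 ± 0.08 on the log2 scale after quantile normalisation (SE, limma, adjusted p = 1.00 and 0.68). Rpl36a and Rpl23a had 0.16 ± 0.07 and -0.18 ± 0.09 at 3mo, and Rpl7 and Rpl8 0.26 ± 0.11 and -0.24 ± 0.13 at 18mo. In the difference between the ages Rpl35a had -0.25 ± 0.11, Rpl18 0.28 ± 0.16 and Rps2 0.20 ± 0.12. None passed in limma.

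Many more promoters were called between the 2 kinds of control than by age or IOP. Peaks were narrower in the untreated libraries, where the median width of the ribosomal protein peaks was 588, 626 and 663 bp at 3mo and 724, 701 and 696 bp at 18mo. In the contralateral libraries it was 857.5, 831 and 857 bp at 3mo and 809, 891 and 829.5 bp at 18mo, and in the IOP libraries 827, 890 and 869.5 bp at 3mo and 772, 880.5 and 837.5 bp at 18mo. The untreated libraries did not overlap the others, and the same held for all protein-coding promoters, with medians of 568 to 672 bp in the untreated and 746 to 880 bp in the other libraries. All 75 ribosomal protein genes had a lower mean width in untreated than in contralateral libraries, and for 27 of them the 2 sets of 6 libraries did not overlap. The same 2 counts were not made over all promoters. With no centring the median difference on the log2 scale was -0.332 for the ribosomal protein genes and -0.375 over all promoters, so this narrowing was not particular to the family. The shortest listed peak moved with the kind of control (79 to 89 bp in untreated and 114 to 152 bp in contralateral libraries), and the kind of control and whatever else set these libraries apart cannot be told apart.

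**Figure D4:**
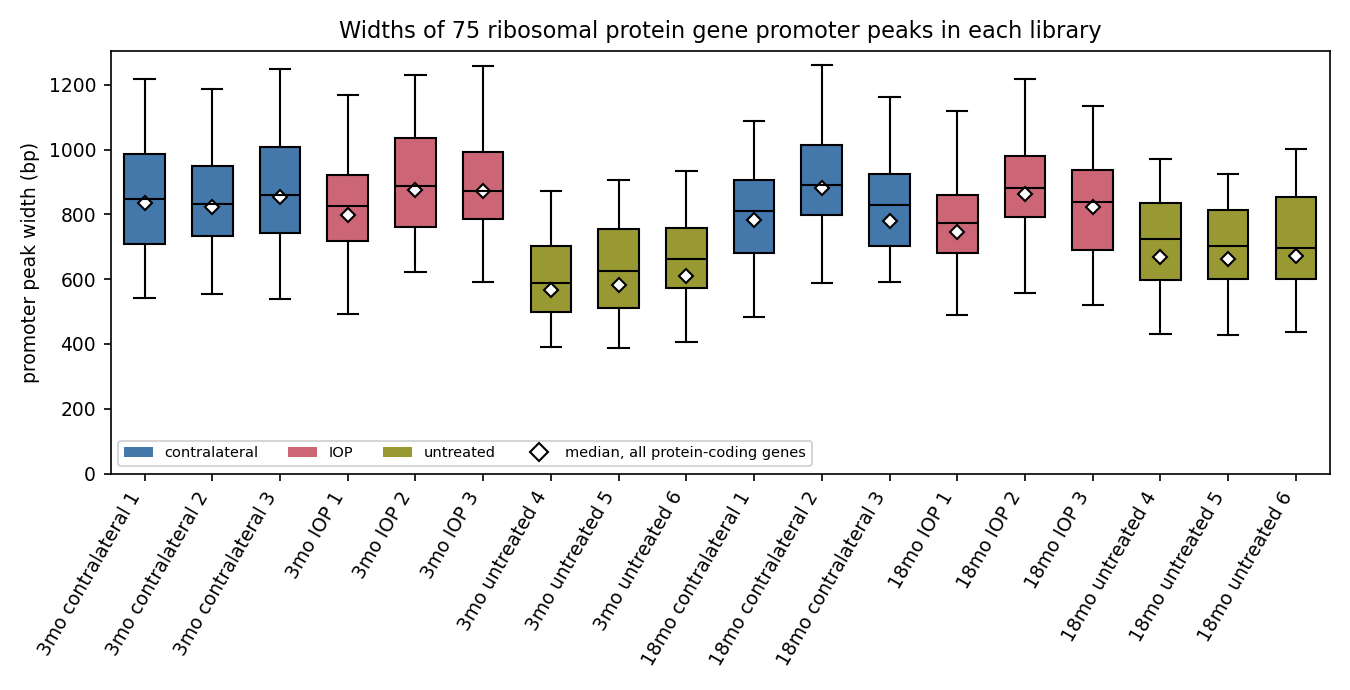
Widths of the promoter peaks of 75 ribosomal protein genes (vertical axis, bp) in each of the 18 libraries, as boxes of the quartiles with a line at the median and whiskers at the 5th and 95th percentiles. White diamonds are the medians of all protein-coding promoters, and the 6 untreated libraries sit lowest, with medians of 588 to 724 bp.

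Widths were therefore centred on each library's median before testing, so that a change is relative to the other promoters of the library. On this scale 24 of 75 ribosomal protein genes differed between untreated and contralateral libraries (21 relatively wider, 3 relatively narrower in untreated), against 41.8% of all 11429 promoters, 2883 relatively wider and 1898 narrower. With no centring the split was 0 wider and 57 narrower, against 1 wider and 9053 narrower of the 11429 promoters. The promoters as a whole had shifted by a median of -0.38 on the log2 scale. Rpl8 and Rps26 were among the 3 that narrowed beyond the others. Rps26 measured 929, 825 and 828 bp in the 3mo contralateral and 470, 287 and 452 bp in the 3mo untreated libraries, and 838, 950 and 792 bp against 468, 570 and 460 bp at 18mo, without overlap. Its relative difference was -0.54 ± 0.12 on the log2 scale (SE, limma, adjusted p = 0.0039), at a summit that stayed in place. Rpl8 had -0.56 ± 0.15 (adjusted p = 0.013 in limma).

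Relatively wider peaks could keep their width in base pairs, as at Rps25, a small subunit protein used by viral internal ribosome entry sites. The peak measured 916, 989 and 946 bp in the 3mo contralateral and 857, 849 and 961 bp in the 3mo untreated libraries, and 955, 937 and 961 bp against 946, 950 and 960 bp at 18mo, and these overlapped. Its relative difference was 0.37 ± 0.05 (SE, limma, adjusted p = 0.00032). The other relatively wider peaks among the 10 with the largest differences were Rpl26 at 0.37, Rpl41 at 0.35, Rpl30 at 0.34, Rpl27a at 0.32, Rpl28 at 0.31 and Rpl24 at 0.30. With no centring the differences of Rps25 and of these 6 were between -0.05 and -0.11 and none passed. The call of Rpl41 was lost without replicate 2 or replicate 3 of the 3mo contralateral group (limma, adjusted p = 0.052 and 0.050).

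Summits differed between the kinds of control for 10 of 75 ribosomal protein genes, 5 further downstream and 5 further upstream in untreated libraries, against 8.54% of all promoters. Rpl10a showed 2 alternative summits. It lay at -49, -48 and -50 bp in the 3mo contralateral libraries and at -440, -429 and -430 bp in the 3mo untreated ones. At 18mo it lay at -437, -60 and -54 bp in the contralateral and at -448, -437 and -449 bp in the untreated libraries, so that 1 contralateral library sat with the untreated ones. The 6 IOP libraries lay between -76 and -45 bp. The shift was -318 ± 59.1 bp (SE, limma, adjusted p = 0.0086). Rpl27, the highest promoter of the family, moved without overlap, from -7 to 2 bp in the 6 contralateral libraries to 39 to 77 bp in the 6 untreated libraries, a shift of 69.2 ± 6.9 bp (SE, limma, adjusted p = 0.00015). Rpl11 moved by 32.7 ± 6.1 bp in the same direction (adjusted p = 0.0090 in limma), while Rpl10 moved by -65.8 ± 11.0 bp, Rps2 by -48.2 ± 10.3 bp and Rps16 by -32.8 ± 6.5 bp. Rpl32 at -215 ± 50.7 bp and Rpl3 at 30.8 ± 7.8 bp each lost their call without any 1 of 8 of the 12 libraries, at adjusted p from 0.053 to 0.081 in limma.

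Height differed for 18 of 75 ribosomal protein genes, 7 relatively higher and 11 relatively lower in untreated libraries, against 27.9% of all promoters (1781 higher, 1411 lower). With heights centred on the library median in place of quantile normalisation the majority over all promoters turned round, to 1372 higher and 1927 lower, and 7 ribosomal protein genes were called higher and 13 lower. The genes named here kept their direction and their call under both scalings. Rpl19 rose most. Its deposited fold enrichment was 6.40, 6.56 and 5.95 in the 3mo contralateral and 10.2, 9.99 and 10.7 in the 3mo untreated libraries, and 7.47, 6.18 and 6.81 against 10.7, 9.95 and 10.5 at 18mo, without overlap. The difference was 0.46 ± 0.05 on the log2 scale after quantile normalisation (SE, limma, adjusted p = 0.00029). Rpl8, whose peak narrowed, was also higher, at 0.36 ± 0.08, as were Rpl12 at 0.30 ± 0.06 and Rpl11 at 0.24 ± 0.06. Rpl9 was relatively lower, at -0.37 ± 0.06 (adjusted p = 0.0011 in limma), followed by Rpl26 at -0.30 ± 0.07, Rps29 at -0.28 ± 0.04, Rps9 at -0.26 ± 0.06, Rpsa at -0.25 ± 0.06 and Rpl27 at -0.23 ± 0.05. The shares of ribosomal protein genes called for width and height were below those of all promoters (24 of 75 against 41.8% and 18 of 75 against 27.9%), and the difference of these shares was not tested.

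**Figure D5:**
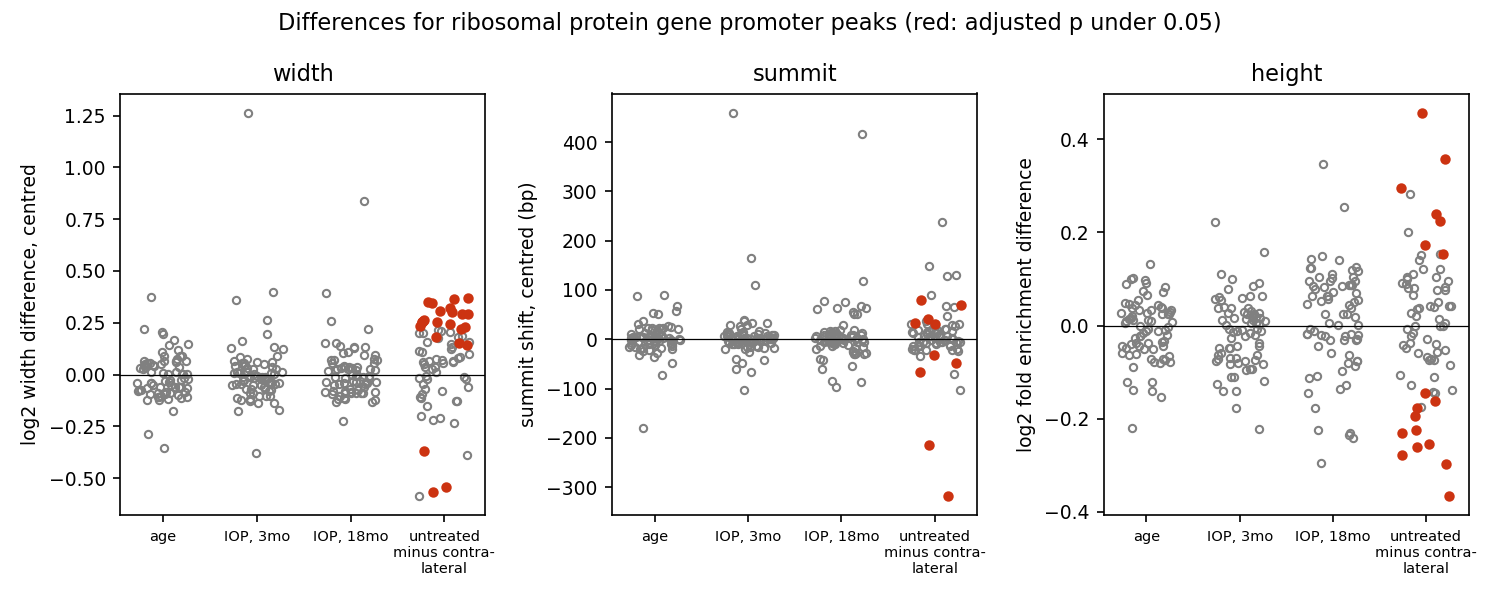
Differences of 75 ribosomal protein gene promoter peaks in width (log2, centred per library), summit position (bp, centred) and height (log2 fold enrichment, quantile normalised) for 18mo minus 3mo controls, IOP minus contralateral at 3mo and at 18mo, and untreated minus contralateral controls. Each point is 1 gene, and genes at an adjusted p under 0.05 in limma are filled red: 24, 10 and 18 genes in the last comparison and none in the others.

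The order of the genes was similar in the 3 kinds of library all the same. Over the 75 genes the Spearman rho of mean width was 0.79 between untreated and contralateral libraries and 0.96 between IOP and contralateral libraries, and over all promoters it was 0.80 and 0.97. For the percentile of fold enrichment it was 0.90 and 0.99 over the ribosomal protein genes. These are descriptions over genes that share libraries.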

How the data were processed

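Chromatin accessibility was measured by ATAC-Seq in 18 libraries of mouse retina, in 6 groups of 3. The authors aligned reads to mm10 and called peaks with MACS2 in each library, and their processing notes name STAR 2.7.8a and bedtools 2.29.2. The extract text in the labels also describes crosslinking and an antibody step. The study's methods name a threshold of q at 0.05. The deposited peak lists give the position and summit of each peak, its fold enrichment (a ratio over background), a −log10 p-value, a −log10 q-value and a score derived from that q-value. Peaks were not pooled. Read depth is not known from these lists, and 36011 to 66160 peaks per library limit what a missing call means. The largest share of identical intervals between any 2 lists was 0.105%, so no library was a copy of another.

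Transcript starts were taken from GENCODE M21, and promoter sequences from RefSeq. Width was tested as log2 width and summit as base pairs, both centred on the library median, and height as log2 fold enrichment after quantile normalisation, in limma 3.58.1 (R 4.3.3) over all protein-coding promoters with a peak in every library of the fit, with Benjamini-Hochberg adjustment. Calls by age were tested with Fisher's exact test (scipy 1.17.1, Python 3.11.15). Both tests were tested on simulated data. The members and gene lists were chosen with earlier results of these data known. Genes named in the text were the members past an adjusted p of 0.05 (the 10 with the largest change), or else the 3 with the smallest p, the members not called in every library, the extremes in width, height and summit, and 8 genes of known function. Some genes that these rules take are not reported here.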

Additional observations from a re-analysis of the deposited data

How the results depend on the processing

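The count of ribosomal protein genes called in all 18 libraries was 77 with peaks at a −log10 q of at least 5, with a window of 500 bp and with 36011 peaks in every library, and 75 at the reference start alone. No ribosomal protein gene was called for age or IOP, in width, summit or height, under any alternative run, including the class of the shortest peak as a covariate, single kinds of control and each library left out in turn, although up to 44 other promoters were called (summit by age in untreated controls only). Deviations in height of same-numbered IOP and contralateral libraries had correlations from -0.373 to 0.329, and those of differently numbered libraries from -0.486 to 0.497. Because each deviation is from a mean of only 3 libraries, these values cannot decide whether the numbers pair the eyes. With the replicate block 0 ribosomal protein genes were called in each IOP comparison. The median width against all promoters was -33.5 bp with peaks at a −log10 q of at least 5. Without centring, 57 ribosomal protein genes were called for width by kind of control, beside 9054 of 11429 promoters, because all promoters shifted. The differences reversed to -0.047 for Rpl26, -0.048 for Rps25, -0.064 for Rpl41, -0.071 for Rpl30, -0.10 for Rpl27a, -0.11 for Rpl28 and -0.11 for Rpl24. Leaving out 1 library gave 17 to 26 ribosomal protein genes for width by kind of control, 7 to 11 for summit and 14 to 20 for height. With every control library in the fit, 41.8%, 8.54% and 27.9% of all promoters were called. The shares over all promoters with 1 library left out are not given here, so these ranges show only how steady the counts were. The calls of Rpl41 (width) and of Rpl32 and Rpl3 (summit) did not hold without single libraries, and that of Rpl3 did not hold without centring (adjusted p = 0.055 in limma). Peak lists without read counts limit heights to the caller's own values.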

Other observations

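Many ribosomal protein genes carry small nucleolar RNAs, which guide the modification of ribosomal RNA, in their introns. Of the 80 genes 29 held annotated snoRNAs, 56 in all. The 28 hosts with a promoter peak in every library had a median of mean widths of 782 bp and a median percentile of 89.7, and the 47 other genes 793 bp and 90.6. Another coding gene started within 1000 bp of a start of 13 genes, such as Ndufa7 at Rps28, Nkiras1 at Rpl15 and Med22 at Rpl7a, and the median width was 793 bp for these and 788 bp for the 62 others. These medians differ by far less than the spread among the genes.

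Inside the genes, more than 1000 bp from every annotated start, 7 genes held a peak in at least 1 library. Rps14 and Rpl22 held one in all 18. Those of Rpl11, Rpl3 and Rps15a were listed in 6 of 6 untreated libraries each, and in 4, 1 and 3 of 6 contralateral and 1, 2 and 0 of 6 IOP libraries. Rpl26 did not follow this pattern. Its peak was listed in 2 libraries of each untreated group, in 3 of the 18mo and 1 of the 3mo contralateral group and in 1 of each IOP group. The muscle paralog Rpl3l, without a promoter peak, held a peak inside the gene in 2 libraries each of the 3mo contralateral, 3mo IOP and 18mo IOP groups and in none of the others. These genes were chosen after their values were seen, such peaks were not counted over other genes, and no test was run.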
